A study of Mus musculus with 9 samples.

Results

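The enzymes described here attach a sugar acid, a sulfate or a glutathione to drugs, hormones, bile pigments and bile acids so that they can leave the liver. They comprise the UDP-glucuronosyltransferases (UGT), the cytosolic sulfotransferases (SULT) and the glutathione S-transferases (GST). Members were all genes of the array whose symbols begin with Ugt1, Ugt2 or Ugt3, with Sult and a digit, with Gst, a class letter (a, k, m, o, p, t or z) and a digit, or with Mgst. Where a gene has several probe sets, the one with the greatest mean over all arrays stood for it. This gave 46 members among 18193 genes: 10 UGT, 13 SULT, 19 cytosolic GST, and 4 kappa and microsomal GST genes.

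The liver samples came from female C57BL/6J mice, 3 of them from the group given no antibiotic (control), 3 from the amoxicillin and 3 from the tylosin group, with 1 array per sample. Amoxicillin, a beta-lactam, was dosed at 25 mg per kg per day (0.167 mg per ml of drinking water), and tylosin, a macrolide, at 50 mg per kg per day (0.333 mg per ml). Both were given as 3 pulses in early life, on days 10 to 15, 28 to 31 and 37 to 40, the earliest of which reached the pups through their mothers' milk. All groups, controls included, later ate a high-fat chow. The sample labels give the age at collection as 24 weeks and the description of growth gives 22 weeks, in either case long after the last dose. The comparisons ask whether a pulsed antibiotic exposure in early life left a trace in the adult liver, and whether both antibiotics left the same one. Littermates all received the same treatment and shared cages, and the labels do not name litters, so litter or cage and treatment cannot be told apart. The replicates carry numbers only, so p-values measure the spread between these samples, which may be technical in part.

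Conjugation is the step of xenobiotic metabolism that makes a compound water soluble. UGT enzymes sit in the endoplasmic reticulum and use UDP-glucuronic acid. SULT enzymes are cytosolic and use the sulfate donor PAPS. GST enzymes join the tripeptide glutathione to electrophiles, and the microsomal forms are membrane proteins. Many of these genes are controlled by the nuclear receptors Nr1i2 (PXR) and Nr1i3 (CAR) and by Nfe2l2 (NRF2), and bacterial enzymes of the gut can split the conjugates that bile delivers.

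Markers of other cell types set amoxicillin replicate 1 and tylosin replicate 2 apart, and those of macrophages were highest in tylosin replicate 3. A list of 14 intestinal epithelium genes, 4 of which exceeded 6 in at least 3 arrays, averaged 6.10 in amoxicillin replicate 1 and 5.94 in tylosin replicate 2 on the log2 scale, against 4.25 to 4.75 in the others. The 7 smooth muscle genes averaged 5.83 and 6.08 in the same arrays, against 4.15 to 4.47. The 8 Kupffer cell and macrophage genes were highest, at 9.34, in tylosin replicate 3, and lay between 8.18 and 9.09 elsewhere. The 5 measured bile duct genes averaged 5.42 in amoxicillin replicate 1, 4.91 in tylosin replicate 2 and 4.01 to 4.29 elsewhere. The 6 hepatocyte genes stayed within 13.73 to 13.94 and the 6 measured pancreatic acinar genes within 3.64 to 4.05, so the tissue carried the markers of its label. Array medians ran from 3.96 to 4.06, and they differed by group. They were 4.034 to 4.062 in the control arrays and 3.964 to 4.027 in the antibiotic arrays. The SD over probe sets was 2.255 to 2.275 in control and 2.292 to 2.346 with an antibiotic. The Actb probe set at the 3′ end exceeded that at the 5′ end by 1.21 to 1.73 on the log2 scale, most in tylosin replicate 2. The part of any of these in the results below was not tested. Values or calls without some of the arrays concerned stand beside the calls and beside the larger differences. In bulk liver, fewer cells of a type and less RNA per cell cannot be told apart.

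**Figure D1:**
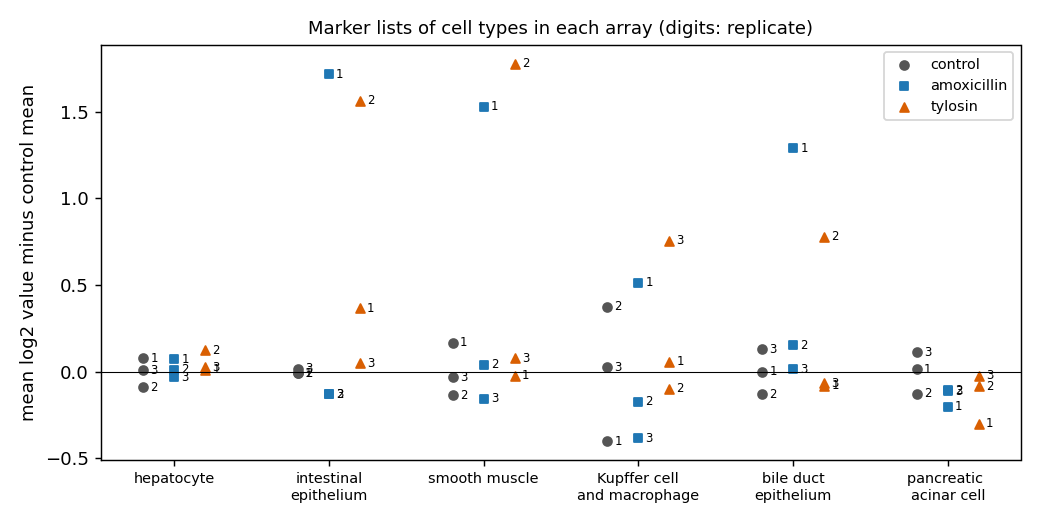
Mean log2 value of each cell type marker list in each array, minus the mean of the 3 control arrays (vertical axis, log2 units). Points are single arrays, with their replicate number beside them. Amoxicillin replicate 1 and tylosin replicate 2 stand over the others for intestinal epithelium and smooth muscle, and tylosin replicate 3 is highest for Kupffer cells and macrophages.

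Most of the conjugation genes were bright in liver, and few were called different between the groups. Of the 46 members, 37 (80.4%) exceeded a log2 value of 6 in 3 arrays or more, as did 42.5% of all genes. The remaining 9 were Sult1c1, Sult2b1, Sult4a1, Sult6b1, Ugt2b38, Gsto2, Gstt4 and Mgst2, which were under 6 in all 9 arrays, and Sult1e1, which passed 6 in a single array. A gene was called different at an unadjusted P under 0.01 with an absolute log2 fold change over 0.5, the thresholds of the study's methods, in limma's test fitted to all probe sets. With amoxicillin against control, 1 of 46 members was called, and it was lower, against 1.28% of all genes tested (0.835% higher and 0.445% lower). With tylosin against control 0 of 46 were called, against 1.45% (1.01% higher and 0.44% lower). Between tylosin and amoxicillin 2 of 46 were called, 1 higher and 1 lower, against 0.11% (0.0715% higher and 0.0385% lower). At an unadjusted P under 0.05 the members numbered 4, 6 and 5 in the same order, with a background of 15.5%, 16.6% and 3.13% of genes. By limma, 0 of the members and 0 of the 18193 genes reached a Benjamini-Hochberg adjusted p under 0.05 in any comparison.

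The median log2 fold change over the members was 0.03 with amoxicillin, 0.01 with tylosin and -0.03 for tylosin against amoxicillin, where the medians of all genes were -0.03, -0.01 and 0.01. The 95% interval of the fold change lay wholly within 0.5 of 0 for 25 members with amoxicillin, 24 with tylosin and 25 between the antibiotics. The same was true of 70.3%, 69.9% and 84.4% of all genes. Absolute log2 fold changes over 0.5 occurred in 3, 5 and 6 members, and in 2.64%, 3.07% and 1.06% of all genes. All arrays of one group lay beyond all arrays of the other for 4 members in each comparison, 2 higher and 2 lower. Among all genes such a separation occurred in 21% with amoxicillin (9.52% higher, 11.4% lower), in 17.4% with tylosin (8.21% higher, 9.15% lower) and in 6.13% between the antibiotics (3.58% higher, 2.56% lower).

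**Figure D2:**
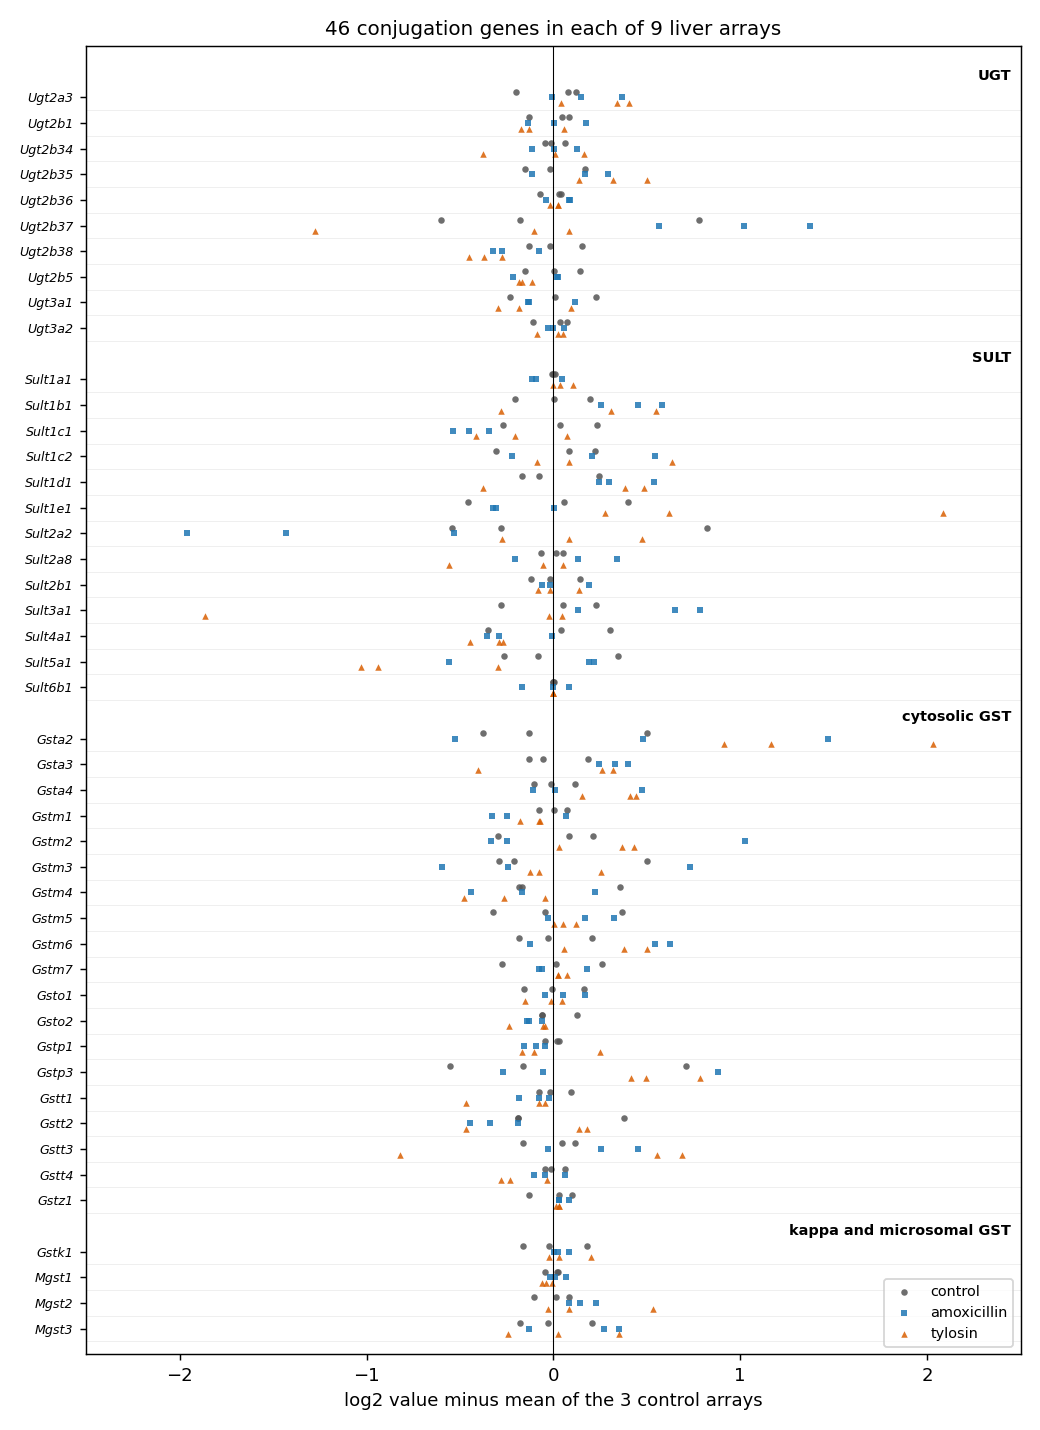
Each of the 46 conjugation genes (rows, by family) in each of the 9 arrays, as the log2 value minus the mean of the 3 control arrays (horizontal axis). Circles are control, squares amoxicillin and triangles tylosin arrays. Most rows stay close to 0, and the widest are Sult2a2, Ugt2b37, Sult1e1, Sult3a1 and Gsta2.

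Single arrays placed several genes at an extreme. Tylosin replicate 3, the array with the highest macrophage markers, was the lowest of the 9 arrays for 12 of 46 members, all of them among the 37 brighter ones. Amoxicillin replicate 1, the next highest for those markers, was the lowest for 2. These counts cover the members only and were not set beside those of all genes. A link between the markers and the counts was not tested. No other array was the lowest for more than 7. Control replicate 1 and amoxicillin replicate 1 were each the highest for 9 members.

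**Figure D3:**
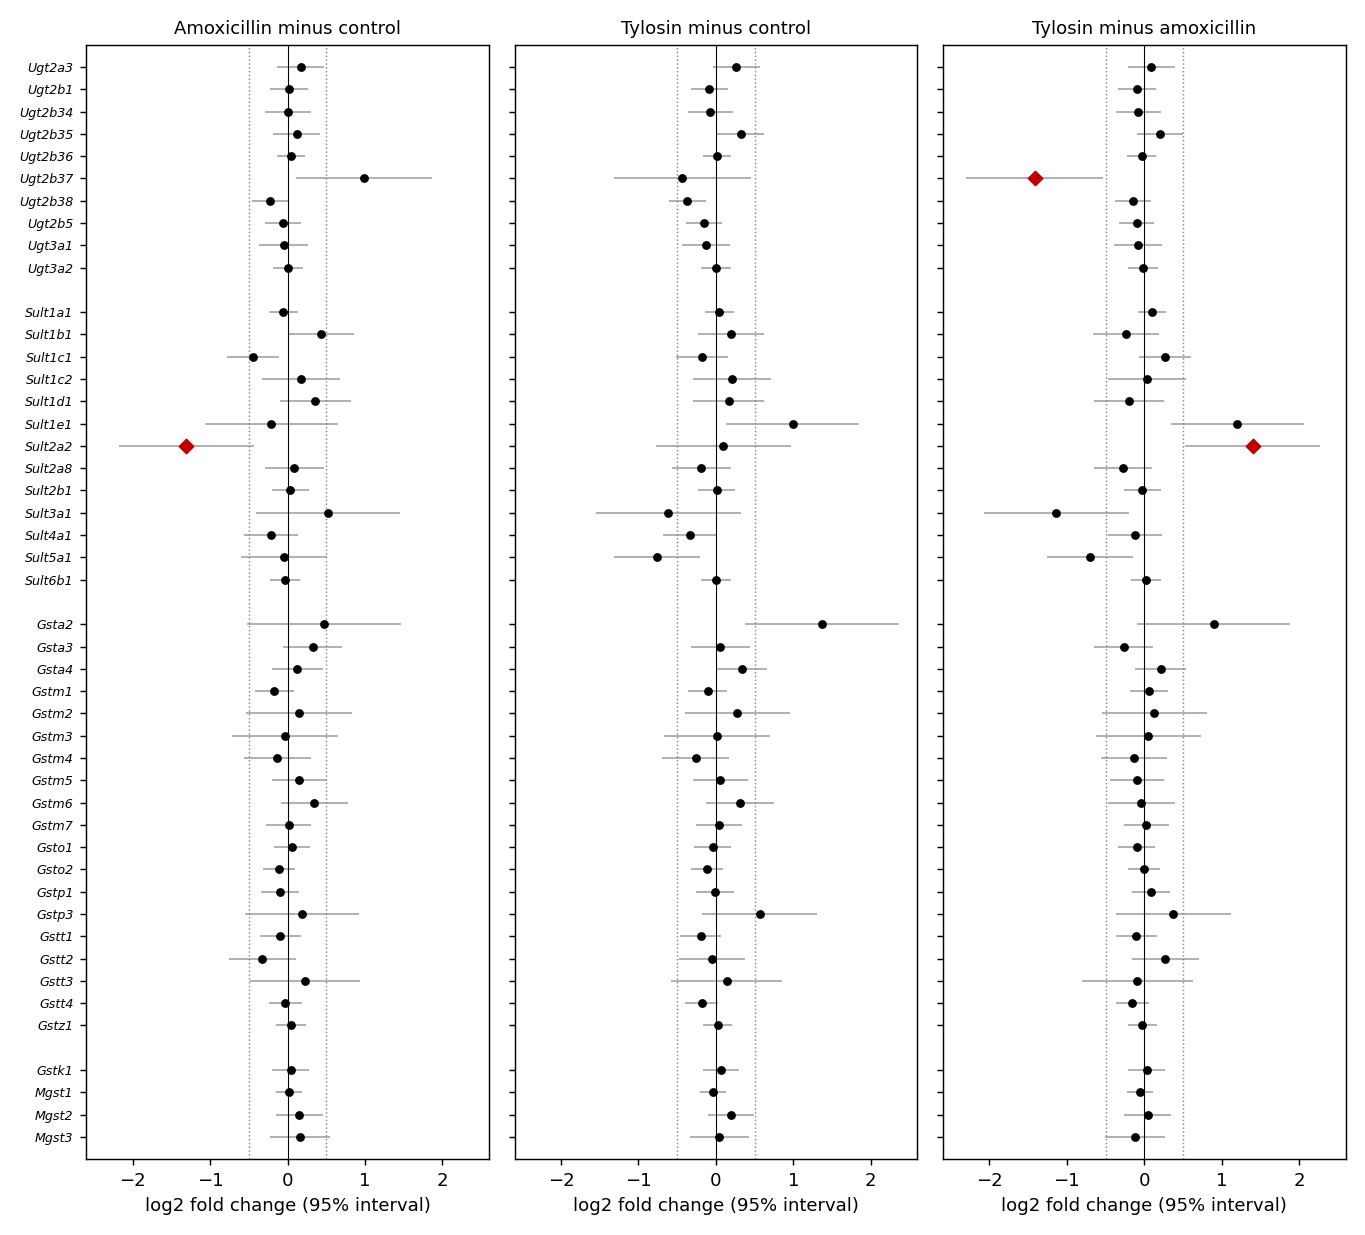
Log2 fold change of each conjugation gene with its 95% interval from limma, for amoxicillin minus control, tylosin minus control and tylosin minus amoxicillin (panels left to right). Dotted lines mark 0.5 either way, and diamonds the calls: Sult2a2 at -1.31 with amoxicillin, and Ugt2b37 at -1.42 and Sult2a2 at 1.40 between the antibiotics.

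Among the UGT genes, Ugt2b37 stood apart from its neighbours. It was lower with tylosin than with amoxicillin, while 7 other Ugt2 genes and both Ugt3 genes were not called in any comparison. The log2 values of Ugt2b37 were 6.59, 5.63 and 5.21 in the control arrays, 6.83, 7.18 and 6.37 with amoxicillin, and 5.89, 5.71 and 4.53 with tylosin. The amoxicillin arrays all lay above the tylosin arrays, and control replicate 1 lay among the amoxicillin arrays. The log2 fold change of tylosin against amoxicillin was -1.42 (SE 0.40, limma unadjusted P = 0.00482, adjusted p = 1). Against control it was 0.99 with amoxicillin (SE 0.40, unadjusted P = 0.0319, adjusted p = 0.31) and -0.43 with tylosin (SE 0.40, unadjusted P = 0.30), and neither was called. The difference between the antibiotics was -1.0 without tylosin replicate 3, and was -1.57 without amoxicillin replicate 1 and tylosin replicate 2, in neither case past the thresholds.

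Ugt2b37 lies in a row of closely related genes on mouse chromosome 5, and the sequence ahead of it is much like that of some of them. The 250 bases upstream of the RefSeq start (build GRCm38.p6, read 5′ to 3′ on the strand of the gene) are shown for Ugt2b37, for the neighbour Ugt2b5, and for Ugt2b38 and Ugt2b36, so that members with similar starts can be set beside their values. Capitals mark AGGTCA, the half-site that many nuclear receptors recognise, searched on both strands.
Ugt2b37, chr5:87254789-87255038, minus strand: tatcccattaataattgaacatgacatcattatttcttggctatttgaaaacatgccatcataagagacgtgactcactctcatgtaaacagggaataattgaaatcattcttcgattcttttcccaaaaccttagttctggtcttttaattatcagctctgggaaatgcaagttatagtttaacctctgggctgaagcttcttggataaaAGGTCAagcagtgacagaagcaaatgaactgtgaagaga
Ugt2b5, chr5:87140341-87140590, minus strand: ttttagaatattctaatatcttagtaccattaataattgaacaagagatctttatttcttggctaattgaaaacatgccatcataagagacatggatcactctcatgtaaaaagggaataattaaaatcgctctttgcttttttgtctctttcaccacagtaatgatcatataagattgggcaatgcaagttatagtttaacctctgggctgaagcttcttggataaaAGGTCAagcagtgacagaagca
Ugt2b38, chr5:87424204-87424453, minus strand: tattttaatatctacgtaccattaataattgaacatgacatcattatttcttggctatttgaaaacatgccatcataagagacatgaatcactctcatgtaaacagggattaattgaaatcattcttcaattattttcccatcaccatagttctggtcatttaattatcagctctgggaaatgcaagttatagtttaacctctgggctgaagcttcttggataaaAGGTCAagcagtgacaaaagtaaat
Ugt2b36, chr5:87092556-87092805, minus strand: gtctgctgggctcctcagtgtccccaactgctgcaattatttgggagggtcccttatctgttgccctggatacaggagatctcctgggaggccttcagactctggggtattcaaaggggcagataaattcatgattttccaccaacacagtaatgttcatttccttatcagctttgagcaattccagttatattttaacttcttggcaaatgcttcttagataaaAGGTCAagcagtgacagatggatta
Ugt2b37 shared an unbroken run of 68 bases with Ugt2b5, 82 with Ugt2b38 and 24 with Ugt2b36, each holding the AGGTCA. With Ugt2b35 the longest run was 10 bases and did not hold it. The remaining Ugt2 windows, among them that of the flanking gene Ugt2a3, were not compared. The letters AGGTCA occurred in 5 of 8 Ugt2 windows (62.5%) and in 9 of the 53 windows of all members (17.0%), and in 14.0% of 32851 windows of mouse genes. These are matches of letters, 4 of the 5 in Ugt2 windows within the run shared by the sequences above, and show no binding. The differences between the antibiotics were -0.10 for Ugt2b5, -0.14 for Ugt2b38, -0.03 for Ugt2b36 and 0.20 for Ugt2b35, beside -1.42 for Ugt2b37.

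**Figure D4:**
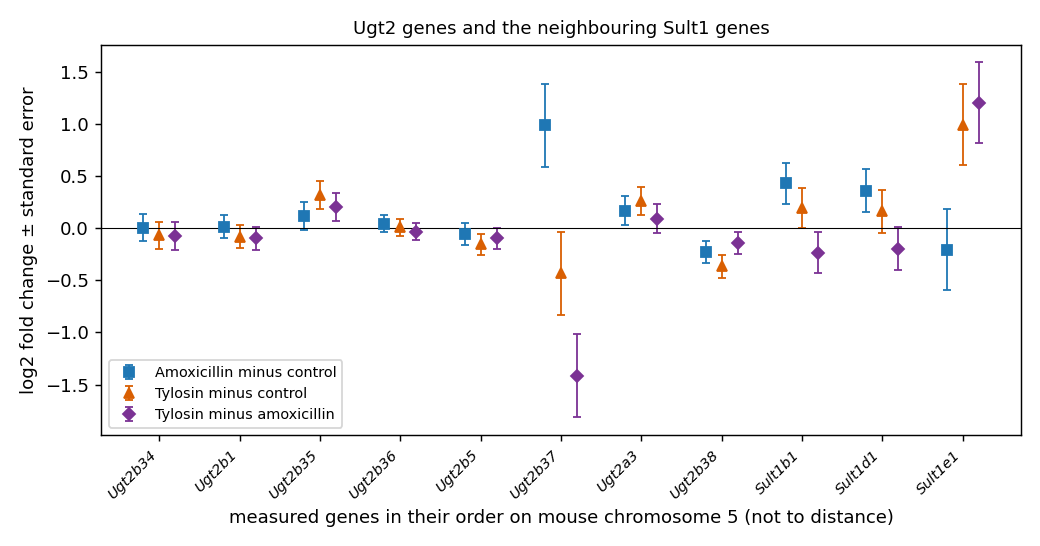
Log2 fold change (vertical axis) with its standard error for the 11 measured Ugt2 and Sult1 genes in their order on chromosome 5, for amoxicillin minus control (squares), tylosin minus control (triangles) and tylosin minus amoxicillin (diamonds). Ugt2b37 and Sult1e1 lie far from 0, and the genes beside Ugt2b37 lie close to it.

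The genes on either side of Ugt2b37 are Ugt2b5, at -0.10 between the antibiotics, and Ugt2a3, at 0.09. The brightly expressed Ugt2b5, Ugt2b36 and Ugt2b1, which glucuronidate steroids and drugs, kept log2 values of 12.26 to 12.62, 12.64 to 12.80 and 10.93 to 11.28 over all 9 arrays. Their fold changes lay between -0.16 and 0.04 against control. Ugt2b38 was lower with tylosin by a small margin, at 3.70, 3.87 and 3.59 in control and 3.44, 3.27 and 3.35 with tylosin (log2 fold change -0.37, SE 0.11, limma unadjusted P = 0.00577, adjusted p = 0.21), under the fold threshold and with all values under 6. Ugt2b35 stood at 0.32 with tylosin (SE 0.14, unadjusted P = 0.040, adjusted p = 0.31), not called. Ugt3a2, which uses sugars other than glucuronic acid, ranged from 11.76 to 11.94 and differed by 0.01 at most. Ugt2b34 and Ugt3a1 lay between -0.13 and 0.01 in all comparisons at their brightest probe sets. Their second probe sets gave 0.17 each with amoxicillin, and 0.10 and 0.07 with tylosin, not called.

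The bilirubin and phenol UGT enzymes of the Ugt1a locus share their last exons, and no probe set here belongs to Ugt1a1, Ugt1a6a or Ugt1a6b alone. The 3 probe sets shared by 8 Ugt1a genes ran from 12.68 to 13.15 over the arrays, with log2 fold changes of -0.07 to 0.02 over the 3 comparisons. They report the summed signal of the locus, so opposite changes of single Ugt1a transcripts would not be seen.

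Among the SULT genes, Sult2a2 was lower with amoxicillin than in either other group. It is a hydroxysteroid sulfotransferase, of the class that sulfonates bile acids and dehydroepiandrosterone and that is higher in female than in male mouse liver. Its log2 values were 12.32, 10.96 and 11.22 in control, 9.54, 10.07 and 10.97 with amoxicillin, and 11.59, 11.23 and 11.97 with tylosin. Every amoxicillin array lay under every tylosin array, whereas amoxicillin replicate 3 and control replicate 2 were level. The log2 fold change was -1.31 with amoxicillin against control (SE 0.39, limma unadjusted P = 0.00733, adjusted p = 0.24) and 1.40 for tylosin against amoxicillin (SE 0.39, unadjusted P = 0.00485, adjusted p = 1). With tylosin against control it was 0.09 (SE 0.39, unadjusted P = 0.82). Without control replicate 1 the difference with amoxicillin was -0.90, and without amoxicillin replicate 1, the array with intestinal markers, it was -0.98, in both cases not called. The difference between the antibiotics was 1.08 without that array and 1.26 without both arrays that carried intestinal markers, again not called. The call between the antibiotics was also lost without tylosin replicate 3.

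RefSeq places 8 Sult2a genes in 1 cluster on chromosome 7, of which Sult2a2 and Sult2a8 were measured by probe sets of their own. The copies are alike in sequence, so the probe set named Sult2a2 may also read others, and Sult2a1 has no probe set of its own here. Sult2a8, a bile acid sulfotransferase, did not share the pattern, with log2 fold changes of 0.09, -0.19 and -0.28 in the 3 comparisons. The dim Sult2b1, a cholesterol sulfotransferase, stayed between 2.68 and 2.99.

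**Figure D5:**
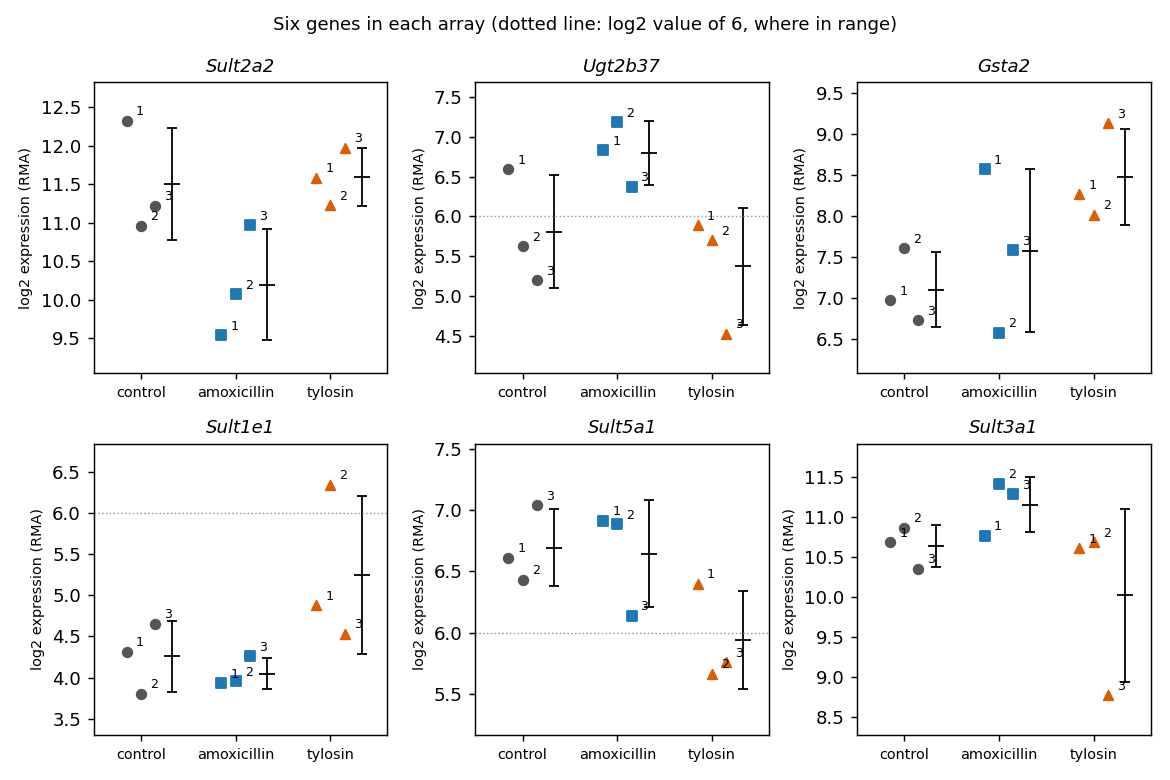
Log2 expression (vertical axes, RMA) of 6 conjugation genes in every array, with the replicate number beside each point. Bars show the mean and SD of 3 arrays. On average the amoxicillin arrays are low for Sult2a2 and high for Ugt2b37, and the tylosin arrays are high for Gsta2. In each of these genes some arrays overlap between groups. A single tylosin array decides much of the spread in Sult1e1 and Sult3a1.

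Sult1e1, the estrogen sulfotransferase, gave 4.32, 3.80 and 4.65 in control, 3.93, 3.95 and 4.26 with amoxicillin, and 4.88, 6.34 and 4.53 with tylosin. The tylosin arrays all lay above the amoxicillin arrays, and the single value over 6 was that of tylosin replicate 2, an array with intestinal markers. The log2 fold changes were 0.99 against control (SE 0.39, limma unadjusted P = 0.0273, adjusted p = 0.28) and 1.20 against amoxicillin (SE 0.39, unadjusted P = 0.0106, adjusted p = 1), neither of them called. Without tylosin replicate 2 they were 0.45 and 0.66. Without tylosin replicate 3 the values were 1.35 and 1.56, and both passed the thresholds.

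Sult5a1, whose substrates are poorly known, was at 6.61, 6.43 and 7.04 in control, 6.91, 6.89 and 6.14 with amoxicillin, and 6.40, 5.67 and 5.76 with tylosin. All tylosin arrays lay under all control arrays (log2 fold change -0.76, SE 0.25, limma unadjusted P = 0.0124, adjusted p = 0.24). Against amoxicillin the value was -0.71 (SE 0.25, unadjusted P = 0.0175, adjusted p = 1). Neither was called. Without tylosin replicate 1 the difference from control was -0.98 and past the thresholds, whereas it was -0.58 without control replicate 3 and -0.62 without tylosin replicate 2, not called. The difference from amoxicillin was -0.44 without both arrays that carried intestinal markers.

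Sult3a1, an amine sulfotransferase named here after its values were seen, gave 10.68, 10.86 and 10.35 in control, 10.77, 11.42 and 11.28 with amoxicillin, and 10.61, 10.68 and 8.77 with tylosin. The low value is that of tylosin replicate 3, and the tylosin arrays all lay under the amoxicillin arrays. The log2 fold change between the antibiotics was -1.13 (SE 0.42, limma unadjusted P = 0.0217, adjusted p = 1), not called. Without tylosin replicate 3 it was -0.51 and not called. It was -1.47 without tylosin replicate 2 and -1.66 without both arrays that carried intestinal markers, and past the thresholds in each case.

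The Sult1 genes for phenols and small aromatic amines, some of which follow the Ugt2 row on chromosome 5, had no call. Sult1a1, the main phenol sulfotransferase of liver, ranged from 12.32 to 12.54 and differed by no more than 0.10 in any comparison. Sult1b1, which sulfonates thyroid hormone, was at 7.12, 6.72 and 6.92 in control and 7.50, 7.17 and 7.37 with amoxicillin, a separation of 0.43 (SE 0.19, limma unadjusted P = 0.0496, adjusted p = 0.34) that was not called. Sult1d1, which acts on catecholamines, was 0.36 higher on average with amoxicillin (SE 0.21, unadjusted P = 0.11). Sult1c1, dim in all arrays at 2.43 to 3.21, was lower in every amoxicillin array than in every control array (log2 fold change -0.45, SE 0.15, unadjusted P = 0.0133, adjusted p = 0.26), short of the thresholds. Sult1c2 stood at 0.18 with amoxicillin and 0.21 with tylosin, and the dim Sult4a1 at -0.22 and -0.33. The dim Sult6b1 differed by 0.03 at most.

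None of the 19 cytosolic GST genes was called, and the alpha class gene Gsta2 came closest with tylosin. Gsta2, an alpha GST that acts on lipid peroxidation products and is a classic NRF2 target, was at 6.98, 7.61 and 6.73 in control, 8.57, 6.58 and 7.58 with amoxicillin, and 8.27, 8.02 and 9.14 with tylosin. Every tylosin array lay above every control array, and amoxicillin spread over both. The log2 fold change with tylosin was 1.37 (SE 0.45, limma unadjusted P = 0.0115, adjusted p = 0.24), just outside the P threshold, and with amoxicillin 0.47 (SE 0.45, unadjusted P = 0.31). Between the antibiotics it was 0.90 (SE 0.45, unadjusted P = 0.0725, adjusted p = 1), not called, and it was 0.40 without amoxicillin replicate 2 and 0.57 without tylosin replicate 3. The highest amoxicillin value was that of replicate 1, with intestinal markers. Without that array and tylosin replicate 2, the differences were 1.60 with tylosin, -0.02 with amoxicillin and 1.62 between the antibiotics, and the first and last of these passed the thresholds. The difference of tylosin from control was 1.04 without tylosin replicate 3 and 1.18 without control replicate 3, not called. It was called in 6 of 18 other settings of the processing, scaling and left-out arrays.

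A second probe set is shared by Gsta2, Gsta1 and Gm3776 and was read apart from the members. It gave 6.78, 6.98 and 6.24 in control, 7.67, 5.38 and 6.40 with amoxicillin, and 7.52, 7.04 and 8.91 with tylosin. Its log2 fold change with tylosin was 1.16 (limma unadjusted P = 0.064), with the same array order in the tylosin group. With amoxicillin it was -0.18 (unadjusted P = 0.75), opposite in sign to that of the Gsta2 probe set. Between the antibiotics it was 1.34 (unadjusted P = 0.036), and none of the 3 was called. These genes lie in 1 stretch of chromosome 9, and neither Gsta1 nor Gm3776 has a probe set of its own here, so the shared signal cannot be given to 1 copy.

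Gsta4, which detoxifies 4-hydroxynonenal, was at 9.10, 9.23 and 9.01 in control and 9.56, 9.27 and 9.52 with tylosin, without overlap (log2 fold change 0.34, SE 0.15, limma unadjusted P = 0.0467, adjusted p = 0.33). Gsta3, the abundant alpha form of mouse liver, was at 12.00, 11.75 and 11.68 in control and 12.21, 12.05 and 12.14 with amoxicillin, also without overlap (0.32, SE 0.17, unadjusted P = 0.090). Neither was called.

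The 7 mu class genes had no call. Their log2 fold changes ranged from -0.17 to 0.35 with amoxicillin, from -0.26 to 0.31 with tylosin and from -0.13 to 0.13 between the antibiotics. Gstm1, the leading mu form, ranged from 12.04 to 12.45. Gstm2 and Gstm3 spread widely within the amoxicillin group, at 7.89, 7.81 and 9.17 and at 8.28, 7.93 and 9.26, with replicate 3 high in both. Gstm6 was 0.35 higher on average with amoxicillin and 0.31 with tylosin (unadjusted P = 0.11 and unadjusted P = 0.14), not called. Genes of this cluster are close copies, and their probe sets may read one another.

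Of the pi class, Gstp1 stayed between 12.12 and 12.53, and all 3 amoxicillin values lay just under the lowest control value, a difference of -0.10 (SE 0.11, limma unadjusted P = 0.41). The theta, omega and zeta genes had no call. Gstt1 ranged from 11.30 to 11.86, Gsto1 from 10.25 to 10.57 and Gstz1, the maleylacetoacetate isomerase of tyrosine breakdown, from 10.86 to 11.09. Gstt4 was under 4 in all arrays and stood at -0.18 with tylosin (unadjusted P = 0.083). Gstp3, a second pi form, was at 8.20, 6.93 and 7.32 in control and 8.27, 7.98 and 7.90 with tylosin, an average difference of 0.56 (SE 0.33, limma unadjusted P = 0.12) with overlapping groups. Gstt3 was at 9.64, 9.77 and 8.26 with tylosin, the last in replicate 3, beside 9.20, 9.14 and 8.92 in control. The tylosin values thus lie on both sides of control, and the gene was called higher with tylosin without that array. Gstt2 stood at -0.32 with amoxicillin (unadjusted P = 0.13) and the dim Gsto2 at -0.11 with each antibiotic.

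The kappa and microsomal genes had no call. Mgst1, an abundant membrane GST, ranged from 13.73 to 13.86 over the 9 arrays, and the 95% interval of each of its 3 fold changes lay within 0.5 of 0. Gstk1, of mitochondria and peroxisomes, ranged from 10.88 to 11.24. Mgst3 ranged from 8.60 to 9.20. Mgst2, which like Mgst3 can make leukotriene C4, was dim, and its highest value, 4.05, was in tylosin replicate 2. None of these 4 genes had a P under 0.05 in any comparison.

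Further probe sets were at hand for 11 members, 13 in all. None was called in any comparison. They had the same sign of fold change as the brightest probe set in 8, 6 and 7 of 13 pairs, mostly around differences near 0. For Sult1d1 the second probe set gave 0.37 with amoxicillin, beside 0.36. Sult2a2, Ugt2b37, Sult1e1, Sult5a1 and Sult3a1 each rest on 1 probe set.

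The genes that feed, control and clear conjugation were read from 6 lists of 77 genes, of which 71 were measured. With amoxicillin 1 was called higher, with tylosin 3 were called higher, and none was called lower or between the antibiotics, beside 0.835% and 1.01% of all genes called higher. Nqo1, the quinone reductase under NRF2 control, was called with both. It was at 5.31, 5.02 and 5.29 in control, 5.76, 5.73 and 6.12 with amoxicillin, and 5.95, 6.05 and 5.85 with tylosin, with no overlap with control. The log2 fold changes were 0.66 (SE 0.13, limma unadjusted P = 0.000327, adjusted p = 0.19) and 0.74 (SE 0.13, unadjusted P = 0.000132, adjusted p = 0.18), against the same control arrays. The probe set was dim, over 6 in 2 of 9 arrays, and so it was left out under the filter on dim probe sets. At the same thresholds it was called with each antibiotic in 17 of 17 other settings of the processing, scaling and left-out arrays.

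Ugdh, which makes UDP-glucuronic acid, the cofactor of the UGT enzymes, was called with tylosin at 0.58 (SE 0.15, limma unadjusted P = 0.00351, adjusted p = 0.19). Its values were 9.07, 9.46 and 9.08 in control and 9.90, 9.98 and 9.46 with tylosin, where tylosin replicate 3 and control replicate 2 were level. The call was lost when control replicate 1 (0.51) or replicate 3 (0.52) was left out, when tylosin replicate 1 (0.52) or replicate 2 (0.48) was, and without both arrays that carried intestinal markers (0.48). Nnmt, which methylates nicotinamide, was called with tylosin at 0.67 (SE 0.19, unadjusted P = 0.00475, adjusted p = 0.20). Its values were 10.49, 10.52 and 10.93 in control, 11.25, 11.05 and 10.55 with amoxicillin, and 11.12, 11.53 and 11.28 with tylosin, and every tylosin array lay above every control array. This call was lost with the replicate block (0.67), when control replicate 1 (0.59) or replicate 2 (0.60) was left out, when tylosin replicate 2 (0.56) or replicate 3 (0.68) was, and without both arrays that carried intestinal markers (0.56). Over the 9 measured genes of UDP-glucuronic acid supply the list mean was 8.39 to 8.49 in control, 8.46 to 8.52 with amoxicillin and 8.58 to 8.61 with tylosin.

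No gene of PAPS supply was called. In that list Slc35b3, a PAPS transporter of the Golgi, had the smallest P with both antibiotics, at 0.38 with amoxicillin (unadjusted P = 0.017) and 0.34 with tylosin (unadjusted P = 0.027). In the glutathione list, Cth, which makes cysteine, stood at 0.48 with tylosin (unadjusted P = 0.014) and Dpep1 at 0.41 with amoxicillin (unadjusted P = 0.029), neither called. The catalytic and modifier subunits of glutamate-cysteine ligase, Gclc and Gclm, which limit glutathione synthesis and are NRF2 targets, differed from control by -0.10 to 0.03. Among the receptors, Ppara was at -0.29 with amoxicillin (unadjusted P = 0.039) and Cebpb at 0.53 with tylosin (unadjusted P = 0.049), neither called. Nr1i2, Nr1i3, Ahr and Nfe2l2 lay between -0.16 and 0.27 against control, none called. Of the conjugate exporters, Abcc2, which pumps conjugates into bile, had the smallest P with amoxicillin (0.38) and the dim Abcc4 with tylosin (0.63), neither called.

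The letters TGACNNNGC, the core of the antioxidant response element, searched on both strands of the 250 bases upstream of the start, occurred in 4 of 53 member windows (7.55%), those of Gsta3, Gstm5, Gstm7 and Mgst1, and in 10.2% of all windows. Windows were at hand for 41 of 46 members. The window of Gsta2 held no match, which says only that these letters are not in it.

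As 3 arrays make a group, standard errors of the single genes ran up to 0.45 on the log2 scale. The calls rest on unadjusted P and on 1 probe set each. Both comparisons with an antibiotic use the same control arrays.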

How the data were processed

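RNA of 9 mouse liver samples was hybridized to Affymetrix mouse expression arrays. The authors normalized the arrays with the robust multi-array average (RMA) in the affy package before they deposited the values, which are log2 expression values. Their versions are not given in the sources used. Values ran from 2.00 to 14.71. RMA pulls the distributions of the arrays together, so a shift common to most genes would be removed, and values for arrays carry no counting depth, so their number limits the precision.

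Of 45101 probe sets, 64 manufacturer controls were left out. Of the 45037 tested, 34945 carried 1 gene symbol, 932 several and 9160 were unnamed in the platform annotation, and genes were named only from probe sets with 1 symbol. All 46 members matched a RefSeq gene number. The 3 comparisons came from 1 limma fit (version 3.58.1, R 4.3.3, lmFit and eBayes) to the 9 arrays, and p-values were adjusted over all probe sets by the Benjamini-Hochberg method. Genes were called where the unadjusted P was under 0.01 and the log2 fold change beyond 0.5 either way, as in the study's methods, with no filter. The procedure was tested on simulated data. Alternatives were another threshold, a filter on dim probe sets, 2 other scalings, other variance models, only the groups compared, the replicate number as a block, arrays left out, and the mean of all probe sets of a gene. Promoter windows came from RefSeq (GRCm38.p6). Figures used matplotlib 3.10.9 under Python 3.11.15.

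Genes named were every called member, the 2 members of smallest P per family and comparison, members listed for their role, and, in each pathway list, each called gene and that of smallest P with either antibiotic. Others were chosen after their values were seen: Sult3a1, Ugt2a3, Ugt2b34, Ugt3a1, Sult1c2, Sult2a8, Sult4a1, Sult6b1, Gsto2, Gstp3, Gstt2, Gstt3, Gstm5, Gstm7, and, among the listed pathway genes, Gclc, Gclm, Nr1i2, Nr1i3, Ahr and Nfe2l2. Members and lists were chosen with earlier results of these data known.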

Additional observations from a re-analysis of the deposited data

Results flagged for a closer look

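Between tylosin and amoxicillin, limma's test called 2 members at the unadjusted thresholds, while 0 of the 18193 genes reached an adjusted p under 0.05. Each call was lost without some of the single arrays, as given below. Neither was called without both arrays that carried intestinal markers. Sult2a2 was 1.40 higher on the log2 scale with tylosin than with amoxicillin (unadjusted P = 0.00485, adjusted p = 1), at -1.31 with amoxicillin and 0.09 with tylosin against the same control arrays. Ugt2b37 was lower with tylosin, at -1.42 (unadjusted P = 0.00482, adjusted p = 1), at 0.99 with amoxicillin and -0.43 with tylosin against control. In both genes all 3 arrays of one antibiotic lay beyond all 3 of the other, as in 6.13% of all genes. The calls came from the same arrays, so this separation is no further support.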

How the results depend on the processing

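The count of conjugation genes called with amoxicillin, 1 as reported (Sult2a2), was 0 at an adjusted p under 0.05, 0 with the filter on dim probe sets, 0 with a trended and robust variance, 0 with array weights, 0 with only the groups compared, and 0 without both arrays that carried intestinal markers. Leaving out single arrays gave 0 to 2, with 0 without control replicate 3, amoxicillin replicate 1 or tylosin replicate 1, and 2 without control replicate 2. Without control replicate 1 or amoxicillin replicate 2 the count was 1, but the gene was Ugt2b37 or Gstm6. The count with tylosin, 0 as reported, was 1 without a threshold on the fold change (Ugt2b38), 1 with median centring (Gsta2), 1 with quantile normalization (Sult5a1), 2 with only the groups compared (Gsta2 and Sult5a1), 1 without both arrays that carried intestinal markers (Gsta2), and 0 to 2 without single arrays (2 without control replicate 2 or tylosin replicate 3, and 1 without any of the amoxicillin arrays in turn or tylosin replicate 1). The count between the antibiotics, 2 as reported (Sult2a2 and Ugt2b37), was 0 at an adjusted p under 0.05, 0 with a trended and robust variance, and 0 to 4 without single arrays, with 0 without amoxicillin replicate 2 and 4 without amoxicillin replicate 3. It was 1 without amoxicillin replicate 1 (Gsta2) or tylosin replicate 3 (Sult1e1), with neither reported gene called, and 2 without tylosin replicate 1 (Sult5a1 and Ugt2b37), with Sult2a2 lost. Array weights gave 3 with these 2 among them, as did leaving out tylosin replicate 2. Without both arrays that carried intestinal markers it was again 2, but these were Gsta2 and Sult3a1, and 0 were shared with the genes reported. The cause of these changes was not tested.

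With the replicate number as a block, the count with amoxicillin was 2 (Sult2a2 and Ugt2b37), with tylosin 0 and between the antibiotics 2. The residuals of 2 of 9 same-numbered pairs correlated above 0.1, at 0.13 and 0.15, both of control with tylosin. The lowest correlation was -0.25, for amoxicillin and tylosin replicate 2. Whether the numbers stand for a pairing or a batch cannot be settled from these values.

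Of the calls reported, Sult2a2 with amoxicillin was lost in 11 of 20 alternatives. Between the antibiotics Sult2a2 was lost in 7 of 20 and Ugt2b37 in 6 of 20. Ugt2b37 exceeded 6 in 4 arrays, those of amoxicillin and control replicate 1, and passed the filter on dim probe sets only through them. For the 31 members named by the rule, 0 called values reversed, where only Sult2a2 and Ugt2b37 had been called. Values that were not called could change sign, as Gstm2 with amoxicillin did, at -0.29 to 0.39 without single arrays. Leaving out single arrays moved Sult2a2 with amoxicillin over -1.69 to -0.90.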
